A study of Mus musculus with 12 samples.

Results

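The H3K4me1 sites found in a Kmt2d mutant mouse melanoma line and not in a Kmt2d wild-type (WT) line are described here. They are the peaks of the mutant H3K4me1 list that had no WT H3K4me1 peak within 1 kb, on chromosomes 1 to 19 and X. The rule took 1928 of the 3649 mutant peaks, 52.8%, and these are called mutant-only sites. For comparison, the other 1721, which did have a WT peak that near, are called retained sites, and 15360 of 17373 WT peaks had no mutant peak within 1 kb and are called WT-only sites. All lists together held 134015 peaks. The WT H3K4me1 list was much the longer one, and with just as many of its most significant peaks as the mutant list holds, 83.4% of mutant peaks had no WT peak within 1 kb.

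The study profiled histone marks by chromatin immunoprecipitation and sequencing (ChIP-seq) in mutant line 493 and WT line 971, with 1 library for each of 4 marks in each line, so no value below has a replicate check. Both are melanoma lines of mouse, grown in DMEM/F12 with serum and antibiotics, and all marks were precipitated with Abcam antibodies. The labels do not name the allele, the strain, the age or sex of the animals or how the mutation arose, and each genotype is 1 line, so genotype and line cannot be told apart. Sequencing depth is unknown, because the files are peak lists. Of 22 genes of the melanocyte lineage, 12 had H3K4me3 within 1 kb of a gene end in the mutant line and 9 in the WT line, and Tyr, Tyrp1, Dct, Kit, Ednrb and 5 others had it in neither. For invasive and neural crest genes it was 24 of 24 in each line, for keratinocyte markers 7 and 4 of 12, and for fibroblast markers 5 and 6 of 10. This count can miss promoters in use. Cox5a also counted as without it, although a mutant-only site 1.91 kb downstream of its start lay in H3K4me3 of both lines.

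H3K4 methylation is laid down by the COMPASS family of methyltransferases. KMT2D, one of them, is known mainly for H3K4me1 at enhancers, whereas other members of the family place H3K4me3 at promoters. At an active promoter H3K4me3 is highest just around the start of transcription, and H3K4me1 typically forms a shoulder on either side of it. H3K27ac accompanies active enhancers and promoters, and H3K27me3 is the mark of Polycomb repression.

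Most mutant-only sites overlapped H3K4me3 that was called in both lines, and 40.1% lay in the flank 0.5 to 3 kb beyond a gene start, on the transcribed side. Of the 1928 sites, 1316 (68.3%, exact binomial 95% interval 66.1% to 70.3%) overlapped a mutant H3K4me3 peak, against 501 of 1721 retained sites (29.1%, 27% to 31.3%) and 6.76% of WT-only sites. Among all mutant H3K4me1 peaks the share was 49.8%. The promoters of 6 genes are printed next, because they show the kind of start beside which the sites lay. Zfpl1, a Golgi membrane protein gene, Ess2, a gene of a nuclear protein that associates with the spliceosome, Rsrp1, a gene of an arginine and serine rich protein, and Ipmk, an inositol phosphate kinase gene, stand for the strongest mutant-only sites, 1.11, 1.09, 2.31 and 1.49 kb downstream of the printed start. Foxl2, a forkhead factor gene of the ovary and eyelid, and Adra2a, an adrenergic receptor gene, stand for sites inside WT H3K27me3, 1.36 and 1.60 kb downstream. Adra2a is not among the 8 strongest of those and was chosen after its values were seen. Each sequence runs 5′ to 3′ on the gene's own strand, from 250 bases before the start to 50 after it, and comes from RefSeq (GRCm38.p6). Capitals mark CpG dinucleotides.
Zfpl1 (chr19:6084926-6085225, minus strand): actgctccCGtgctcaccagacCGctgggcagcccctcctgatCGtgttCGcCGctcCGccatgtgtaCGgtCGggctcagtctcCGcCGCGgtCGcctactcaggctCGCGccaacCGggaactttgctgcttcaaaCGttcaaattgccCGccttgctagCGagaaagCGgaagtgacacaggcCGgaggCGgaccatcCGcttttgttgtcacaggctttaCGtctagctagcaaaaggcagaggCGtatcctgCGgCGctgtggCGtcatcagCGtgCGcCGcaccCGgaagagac
Ess2 (chr16:17911299-17911598, minus strand): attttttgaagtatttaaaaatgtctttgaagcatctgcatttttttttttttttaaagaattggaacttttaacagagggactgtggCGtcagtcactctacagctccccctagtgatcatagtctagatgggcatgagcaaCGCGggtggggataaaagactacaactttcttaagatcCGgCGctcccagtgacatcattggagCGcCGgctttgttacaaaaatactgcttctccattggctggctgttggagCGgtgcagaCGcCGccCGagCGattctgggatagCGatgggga
Rsrp1 (chr4:134923375-134923674, plus strand): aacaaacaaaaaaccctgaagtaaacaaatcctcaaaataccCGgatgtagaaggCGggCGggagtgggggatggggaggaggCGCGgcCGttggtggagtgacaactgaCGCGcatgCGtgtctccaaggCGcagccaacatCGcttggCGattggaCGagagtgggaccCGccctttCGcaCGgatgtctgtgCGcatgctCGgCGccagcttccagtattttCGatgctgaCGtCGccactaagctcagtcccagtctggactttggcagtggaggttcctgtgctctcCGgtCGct
Ipmk (chr10:71347513-71347812, plus strand): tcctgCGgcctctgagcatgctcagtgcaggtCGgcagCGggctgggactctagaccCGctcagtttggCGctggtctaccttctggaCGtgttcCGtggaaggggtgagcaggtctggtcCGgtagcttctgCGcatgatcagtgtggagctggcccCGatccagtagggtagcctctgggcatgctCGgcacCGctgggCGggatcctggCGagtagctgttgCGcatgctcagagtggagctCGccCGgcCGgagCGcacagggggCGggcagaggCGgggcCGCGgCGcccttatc
Foxl2 (chr9:98955357-98955656, plus strand): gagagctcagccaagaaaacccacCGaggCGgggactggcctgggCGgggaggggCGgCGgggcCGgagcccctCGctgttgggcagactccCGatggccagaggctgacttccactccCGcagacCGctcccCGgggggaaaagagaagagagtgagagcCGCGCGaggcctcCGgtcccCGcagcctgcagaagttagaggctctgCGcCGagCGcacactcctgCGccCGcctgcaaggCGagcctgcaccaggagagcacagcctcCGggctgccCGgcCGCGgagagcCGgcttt
Adra2a (chr19:54045009-54045308, plus strand): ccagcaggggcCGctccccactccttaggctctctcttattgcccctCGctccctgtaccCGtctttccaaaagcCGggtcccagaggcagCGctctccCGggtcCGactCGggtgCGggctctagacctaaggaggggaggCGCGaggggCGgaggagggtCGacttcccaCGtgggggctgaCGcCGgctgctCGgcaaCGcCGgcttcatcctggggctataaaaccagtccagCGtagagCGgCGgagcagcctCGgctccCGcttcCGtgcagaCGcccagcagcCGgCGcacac

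These promoters held 31 (Zfpl1), 13 (Ess2), 24 (Rsrp1), 24 (Ipmk), 27 (Foxl2) and 28 (Adra2a) CpGs, where the median over all 32619 RefSeq promoters was 7. All of these starts lay in H3K4me3 of both lines.

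The peaks themselves were short and modest, by the authors' values. Mutant-only sites had a median width of 334 bp (quartiles 250 to 460 bp), a median fold enrichment over input of 4.53 (4.29 to 4.80) and a median −log10 p of 6.09 (5.66 to 6.64). Retained sites had 377 bp, 4.57-fold and 6.21, and WT-only sites 414 bp, 4.60-fold and 6.31. Because the rule read the same peak calls, these values are a description. The sites covered 740 kb in all, and retained sites 765 kb. In 5 bins of the mutant list of equal size, from the weakest to the strongest p, 58.2%, 54.4%, 55.3%, 51.1% and 45.2% of peaks were mutant-only.

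Distances from mutant-only sites to WT H3K4me1 are a description, because the rule selected on them and no distance for other positions was computed. The nearest WT H3K4me1 peak lay a median of 26 kb away (quartiles 6.41 to 88.9 kb). It lay between 1 and 5 kb away at 20.9% of sites, between 5 and 10 kb at 9.96%, between 10 and 50 kb at 33.1% and beyond 50 kb at 36%. At the edge of the rule, sites near Dync1i2 and Kcnh2 were taken with 1011 and 1013 bases between them and the WT peak, with mutant −log10 p values of 7.49 and 6.34. A peak near Mical2 with 997 bases and one with 998 bases and no gene end within 100 kb were not taken, with 6.12 and 5.64. The nearest mutant-only site to Kmt2d lay 117 kb from the gene, the nearest retained site 113 kb and the nearest WT-only site 23.1 kb.

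Relative to the direction of transcription the mutant-only sites were one-sided. Start sites with strand were known for 17274 protein-coding genes and for some other genes, and not on chromosome 18, which leaves 1883 mutant-only, 1681 retained and 14874 WT-only sites. Of the mutant-only sites, 756 (40.1%, 37.9% to 42.4%) had their midpoint 0.5 to 3 kb downstream of the nearest start, against 224 retained sites (13.3%, 11.7% to 15%) and 851 WT-only sites (5.72%, 5.35% to 6.11%). The share was 27.5% over all mutant H3K4me1 peaks. The same distance upstream held 9.35% of mutant-only, 6.07% of retained and 5.04% of WT-only sites.

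Within 0.5 kb of the start the sets were alike in share, with 1.91% of mutant-only, 1.78% of retained and 1.84% of WT-only sites. Counting everything within 5 kb, 885 mutant-only sites lay downstream and 217 upstream, 4.08 downstream for each upstream. Retained sites had 346 and 159, a ratio of 2.18, and WT-only sites 1569 and 1329, a ratio of 1.18. The fullest 250 bp bin for mutant-only sites was that from 1250 to 1500 bp downstream, with 161 sites. A smaller rise of 33 sites lay 750 to 1000 bp upstream, and the 4 bins from 500 bp upstream to 500 bp downstream held 8, 9, 10 and 9. Mutant-only sites thus had a gap at the start, a low shoulder before it and a high one after it.

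**Figure D1:**
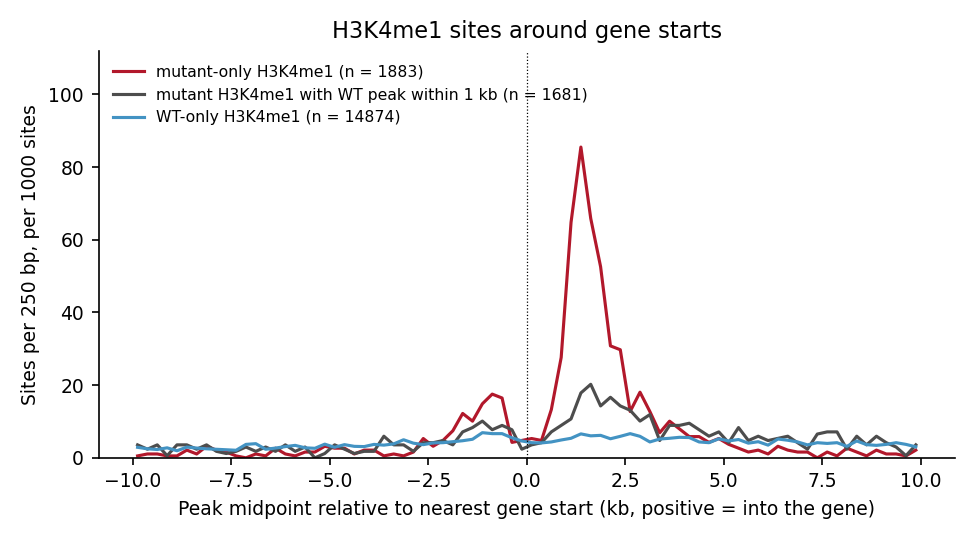
Position of H3K4me1 peak midpoints relative to the nearest RefSeq gene start (horizontal axis, kb, positive into the gene) as sites per 250 bp bin and per 1000 sites (vertical axis), for mutant-only, retained and WT-only sites. The mutant-only line is highest 1250 to 1500 bp downstream (161 of 1883 sites), where the WT-only line stays nearly flat.

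WT H3K4me1 along the same stretches is given as a description, because the rule bars WT H3K4me1 peaks within 1 kb of each mutant-only site. For the 756 mutant-only sites 0.5 to 3 kb downstream, 96 (12.7%, 10.4% to 15.3%) had any WT H3K4me1 midpoint in the first 10 kb after the start. Counted once per start the share was 12.9% (10.6% to 15.5%) of 737 starts, against 15.3% (14.6% to 15.9%) of the 12893 starts in H3K4me3 of both lines and 9.97% of all 32619. Where there was one, the first lay at a median of 5.62 kb (quartiles 3.95 to 8.12 kb), whereas the mutant-only sites lay at a median of 1.54 kb. The rule keeps WT peaks 1 kb away from these sites and does not do so at the other starts. The shares are therefore not a like comparison, and the distances are also a description.

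H3K4me3 was called in both lines at most of these places. Of the mutant-only sites, 1267 (65.7%, 63.5% to 67.8%) overlapped H3K4me3 in both lines, 49 (2.54%) in the mutant line alone, 171 (8.87%) in the WT line alone and 441 (22.9%) in neither. For retained sites the shares were 27.8%, 1.28%, 25.9% and 45%, and for WT-only sites 6.22%, 0.54%, 13.3% and 79.9%. A WT H3K4me3 peak overlapped 1438 mutant-only sites (74.6%, 72.6% to 76.5%), 925 retained sites (53.7%, 51.4% to 56.1%) and 19.6% of WT-only sites, with 64.8% over all mutant H3K4me1 peaks. Within 1 kb instead of direct overlap, mutant H3K4me3 lay at 74.5% of mutant-only and 38.2% of retained sites (57.4% over all), and WT H3K4me3 at 80.9% and 64.1% (73% over all).

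**Figure D2:**
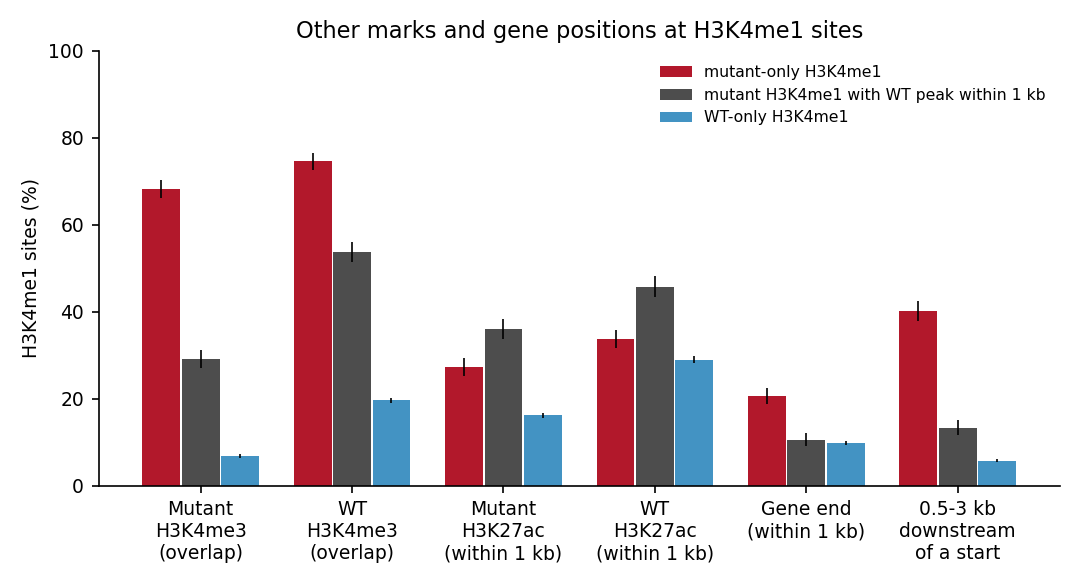
Percent of mutant-only, retained and WT-only H3K4me1 sites (vertical axis) that overlap H3K4me3, lie within 1 kb of H3K27ac, lie within 1 kb of a gene end or lie 0.5 to 3 kb downstream of a start, with exact binomial 95% intervals as error bars. Mutant-only sites have the highest shares for H3K4me3 and both gene positions, and lie below retained sites for H3K27ac (27.3% against 36.1% in the mutant line).

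Inside the H3K4me3 peaks the sites kept to the flanks. Of the 1316 sites in mutant H3K4me3, 1081 (82.1%) lay wholly inside the peak, and the midpoint was a median of 488 bp (quartiles 259 to 794 bp) from its nearer edge. On a scale from the centre of the peak (0%) to its edge (100%), the 5 equal steps from the centre out held 5.55%, 9.42%, 23.7%, 32.8% and 22.3% of sites, and 6.31% had their midpoint beyond the edge. Retained sites in mutant H3K4me3 were spread more evenly, with 10.4%, 13%, 23%, 22.6%, 19.8% and 11.4%. In WT H3K4me3 the same steps held 9.32%, 12.7%, 21.7%, 32.1% and 19.1% of mutant-only sites, and 5.22% (4.12% to 6.49%) lay beyond the edge. WT-only sites lay beyond the edge more often, at 25.4% (23.8% to 27%), with a like share of 21% in the outermost step.

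**Figure D3:**
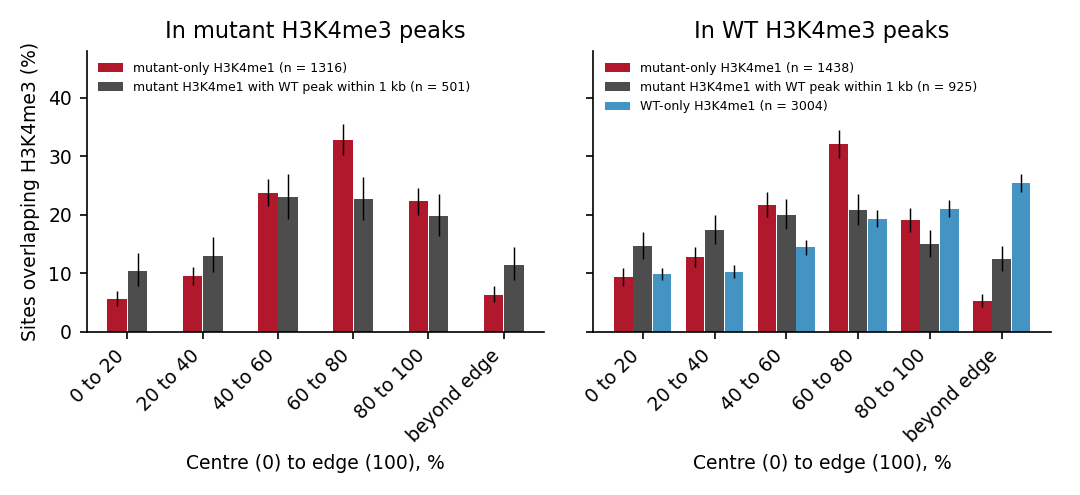
Position of H3K4me1 sites within the H3K4me3 peak they overlap, from its centre (0) to its edge (100) in 5 steps (horizontal axis, percent), as percent of overlapping sites (vertical axis) with exact binomial 95% intervals, for mutant H3K4me3 peaks (left) and WT H3K4me3 peaks (right). Mutant-only sites are most frequent at 60 to 80% of the way to the edge in both (32.8% and 32.1%).

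The H3K4me3 peaks that carried mutant-only sites were wide and strong. Their median width per site was 3.21 kb in the mutant line and 3.22 kb in the WT line, and the median score was 3100 in each, a value that recurs among the strongest peaks. The share of mutant H3K4me3 peaks with a mutant-only site was 1.49% below 1 kb, 2.59% from 1 to 2 kb, 7.79% from 2 to 3 kb, 13.7% from 3 to 4 kb, 18% from 4 to 5 kb and 21.4% (18.5% to 24.5%) at 5 kb or more, against 6.90% over all 17982 peaks. A wider peak offers more bases to overlap. For retained sites these shares were 1.88%, 1.22%, 1.47%, 2.99%, 7.27% and 11.9%. Of the 1241 peaks that held a mutant-only site, 1170 held 1, 71 held 2 or more and at most 4, and 39 of the 71 had them on both sides of the centre. A retained site also lay in 33 of the 1241.

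H3K4me3 peaks were slightly narrower in the mutant line, with and without a mutant-only site. The 1232 peaks with a mutant-only site and a WT overlap had median widths of 3.17 kb in the mutant line and 3.23 kb in the WT line, with a median mutant minus WT difference of −87.5 bp, and 57.5% (54.7% to 60.2%) were wider in the WT line. Of the 7794 shared peaks at least 2 kb wide without such a site, 59.0% (57.9% to 60.1%) were wider in the WT line, with a difference of −94 bp. Of the sites 0.5 to 3 kb downstream, 704 overlapped H3K4me3 in both lines, and the peak went on beyond their midpoint for a median of 542 bp in the mutant line and 612 bp in the WT line. In 98% and 96.7% of these cases the same H3K4me3 peak also covered the start.

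For H3K27ac the mutant-only sites lay below the retained sites. H3K27ac peaks were narrow, with median widths of 107 bp in the mutant line and 116 bp in the WT line, so the distance of 1 kb is given first. Mutant H3K27ac lay within 1 kb of 526 mutant-only sites (27.3%, 25.3% to 29.3%), against 621 retained sites (36.1%, 33.8% to 38.4%) and 16.2% of WT-only sites, and 31.4% over all mutant H3K4me1 peaks. WT H3K27ac lay there at 651 mutant-only sites (33.8%, 31.7% to 35.9%), 786 retained sites (45.7%, 43.3% to 48.1%) and 29.0% of WT-only sites, and 39.4% over all. Direct overlap was seen at 157 mutant-only sites in the mutant line (8.14%) and 155 in the WT line (8.04%), against 13.8% and 18.1% of retained sites, and 10.8% and 12.8% over all mutant H3K4me1 peaks. With the more significant 50% of each H3K27ac list, 5.19% of mutant-only sites overlapped mutant H3K27ac and 4.67% WT H3K27ac.

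The combination of H3K27ac in both lines is given next. H3K27ac was within 1 kb in both lines at 233 mutant-only sites (12.1%), in the mutant line alone at 293 (15.2%, against 15.4% of all mutant H3K4me1 peaks), in the WT line alone at 418 (21.7%) and in neither at 984 (51.0%). The WT H3K27ac list was also the longer one, with 26414 peaks against 18749 in the mutant line, and no correction for list length was made. For retained sites the same shares were 20.5%, 15.6%, 25.2% and 38.8%.

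The same orders were seen among weak and strong peaks. In each of 5 bins of the mutant H3K4me1 list by p, a larger share of mutant-only than of retained sites overlapped mutant H3K4me3, at 63.3% against 25.2% in the weakest bin and 69.1% against 31.8% in the strongest. WT H3K4me3 gave 69.4% against 51.5% and 78.5% against 57.5%. For mutant H3K27ac within 1 kb the mutant-only share was the lower one in each bin, at 28.5% against 37.4% in the weakest and 25.2% against 37.8% in the strongest.

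**Figure D4:**
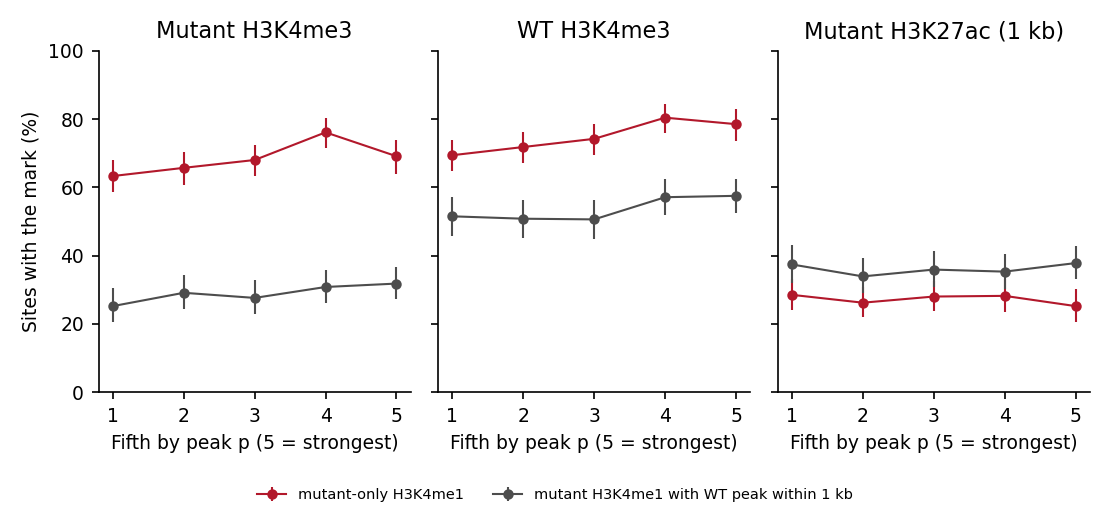
Percent of mutant-only and retained sites with mutant H3K4me3 (overlap), WT H3K4me3 (overlap) or mutant H3K27ac (within 1 kb) on the vertical axis, by bin of equal size of the mutant H3K4me1 list from the weakest (1) to the strongest (5) p, with exact binomial 95% intervals. Mutant-only sites lie above retained sites for H3K4me3 in all 5 bins and below them for H3K27ac.

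Gene positions that ignore strand gave the same order. A gene end lay within 1 kb of 397 mutant-only sites (20.6%, 18.8% to 22.5%), 182 retained sites (10.6%, 9.16% to 12.1%) and 9.85% of WT-only sites, with 15.9% over all mutant H3K4me1 peaks. Within 2.5 kb the mutant-only share was 57%, and the other sets were not counted at that distance. A gene model was overlapped by 83.1%, 78.0% and 71.2% of these sets, and by 80.7% of all mutant peaks. More than 10 kb from any known start lay 35.5%, 55.7% and 66.8%.

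The starts beside the downstream mutant-only sites were CpG-rich, as promoters with H3K4me3 in general are. The 737 starts had a median GC content of 62.3% (quartiles 57.0% to 67.7%), a median of 24 CpGs and a median observed over expected CpG ratio of 0.83 in their 300 bases. The 12893 starts in H3K4me3 of both lines had 62.3%, 22 and 0.79, and all promoters 53.0%, 7 and 0.39. Starts with a WT-only site in the same place had 57.3%, 11 and 0.54. H3K4me3 of both lines covered 97.4% of the starts beside mutant-only sites, 85.2% of those beside retained sites and 56.1% of those beside WT-only sites.

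Short sequence motifs were searched on both strands of these promoters. The ETS motif CCGGAAGT was in 10.6% (8.46% to 13.0%) of the 737 promoters, against 8.45% of promoters with H3K4me3 in both lines and 3.91% of all promoters. The SP and KLF motif GGGCGGGG was in 36.8% (33.3% to 40.4%), against 35.5% and 17.7%, and the AP-1 motif TGANTCA in 4.61% (3.22% to 6.39%), against 4.29% and 7.85%. The MITF M-box TCANGTGA, read by the master factor of melanocytes, was in 4.75% (3.33% to 6.54%), against 3.78% and 4.21%, and the CRE TGACGTCA in 3.12%, against 3.27% and 1.80%. TEAD (GGAATG), SOX (AACAATG) and NRF1 motifs were in 10.2%, 1.36% and 2.85%, against 11.0%, 1.75% and 2.23% of promoters with H3K4me3 in both lines and 14.6%, 3.77% and 0.978% of all promoters. These letters were close in share to those of H3K4me3-marked promoters in general. Of the promoters printed above, that of Foxl2 holds 1 match, to the SP and KLF motif.

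H3K27ac at the starts beside downstream sites was somewhat more frequent than over all starts in H3K4me3 of both lines, for mutant-only and retained sites alike. It lay within 1 kb of 304 of the 737 starts in the mutant line (41.2%, 37.7% to 44.9%) and of 426 in the WT line (57.8%, 54.1% to 61.4%), against 39.2% (32.6% to 46.2%) and 54.1% (47.1% to 61%) of the 209 starts beside retained sites and 34.1% and 50.7% of the 12893 starts. H3K4me3 ran to a median of 2.06 kb after the start in the mutant line and 2.11 kb in the WT line, against 2.47 and 2.73 kb beside retained sites and 1.63 and 1.69 kb over the 12893, while before the start it reached 1.02 and 1.04 kb, against 1.05 and 1.16 kb and 0.939 and 0.974 kb. A wider downstream flank leaves more room for a site 0.5 to 3 kb downstream, and its part in the result was not tested.

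Most of the strongest mutant-only sites overlapped H3K4me3 of both lines. Of the 25 strongest that could be assigned to different protein-coding genes, 18 overlapped H3K4me3 in both lines, 5 in the WT line alone and 2 in neither. The shares over all mutant-only sites were 65.7%, 8.87% and 22.9%. A gene model was overlapped by 21 of the 25, and 8 were on chromosome 10 or 19, against 83.1% and 16.6% of all mutant-only sites. Mutant H3K27ac lay within 1 kb of 7 and WT H3K27ac of 10, where the shares over all mutant-only sites were 27.3% and 33.8%. The first was at Pank4, which encodes a pantothenate kinase family protein (chromosome 4, 154966409 to 154966610). It was enriched 6.22-fold over input, with a −log10 p of 9.87, where the nearest WT H3K4me1 peak was 160 kb away and H3K4me3 spanned 3.22 kb in the mutant line and 3.02 kb in the WT line. At Zfpl1 (chromosome 19, 6083507 to 6084212) the site was 706 bp wide with 5.59-fold enrichment and a −log10 p of 9.79, inside H3K4me3 of 3.46 kb in the mutant line and 3.3 kb in the WT line. At Ess2 (chromosome 16, 17909900 to 17910616) it was 717 bp wide with 6.18-fold enrichment and a −log10 p of 9.42, and H3K27ac lay within 1 kb in both lines.

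The other named sites among these lay at genes of varied roles. Rsrp1 (−log10 p 9.38), Ipmk (9.33), Ccp110, a centriole protein gene (9.29), Sac3d1, a centrosome and spindle gene (9.16), Eml3, a microtubule-binding protein gene (8.92), Myg1, an exonuclease gene (8.78), and Tceanc2 (8.75) had their site 2.31, 1.49, 1.08, 1.78, 1.28, 1.19 and 1.27 kb downstream of the start, within H3K4me3 of both lines. Hnrnpa2b1, an RNA-binding protein gene (9.05), and Lsm14a, a P-body protein gene (8.78), had it 3.95 and 3.01 kb downstream, in mutant H3K4me3 peaks of 9.28 and 4.92 kb and WT peaks of 8.83 and 4.78 kb. The site at Tkfc, a triokinase gene (9.46), lay just upstream, at −0.496 kb from the start. That of Cic, a transcriptional repressor gene of the MAPK pathway (9.32), lay at −4.53 kb, also upstream, where the overlapping H3K4me3 peak spanned 1.55 kb in the mutant line and 4.76 kb in the WT line. The sites at Tkfc and Cic both overlapped a gene model, so upstream refers here to the nearest listed start alone.

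At several of the strongest sites the overlapping H3K4me3 peak was narrower in the mutant line than in the WT line, or was called in the WT line alone. Sites near Ptprj, a receptor tyrosine phosphatase gene (9.31), Ahnak (9.29), Plec, the plectin gene (9.08), Ktn1, the kinectin gene (9.05), and Txn1, the thioredoxin gene (9), overlapped WT H3K4me3 of 4.07, 1.15, 0.747, 0.445 and 1.23 kb and none in the mutant line. At Rtn4, a reticulon gene (9.01), the overlapping H3K4me3 peak spanned 0.637 kb in the mutant line and 2.60 kb in the WT line, at Nars, an asparaginyl-tRNA synthetase gene (8.81), 0.613 and 4.51 kb, and at Katnal1, a katanin subunit gene (8.74), 0.684 and 1.72 kb. Mutant peak scores there were low, at 56.7, 65.6 and 111. Here and at all named sites, the width is that of the 1 overlapping peak. Other peaks called beside it are not counted, so it need not be the width of the whole marked region. The 2 without H3K4me3 in either line lay near Dnajb12, a chaperone gene (9.24), and Mia3, a cargo receptor gene (8.77), and both had WT H3K27ac within 1 kb and no mutant H3K27ac.

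By H3K4me3 state, the mutant-only sites fell into classes with different surroundings. Surroundings of retained and WT-only sites were not computed by H3K4me3 state. The values here and in the next paragraph are thus not shown to be particular to mutant-only sites. The 1267 sites with H3K4me3 in both lines lay downstream (0.5 to 3 kb) in 56.9% of cases, and 90.8% overlapped a gene model. The 171 in H3K4me3 of the WT line alone lay there in 11.8%, and 64.1% were more than 10 kb from a start. They were also closer to WT H3K4me1, at a median of 11.2 kb against 28.4 kb for sites with H3K4me3 in both lines, and mutant and WT H3K27ac lay within 1 kb of 33.3% (26.3% to 40.9%) and 36.3% (29.1% to 43.9%). The 441 without H3K4me3 were more than 10 kb from a start in 75.7% of cases and overlapped a gene model in 60.5%.

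Sites without H3K4me3 had mutant H3K27ac within 1 kb in 37.6% of cases (33.1% to 42.3%) and WT H3K27ac in 33.8% (29.4% to 38.4%). For sites with H3K4me3 in both lines these shares were 23.4% (21.1% to 25.9%) and 34.1% (31.5% to 36.8%). Of the 441, 74 had H3K27ac within 1 kb in both lines, 92 in the mutant line alone, 75 in the WT line alone and 200 in neither. Of all mutant H3K4me1 peaks, with or without H3K4me3, 15.4% had H3K27ac within 1 kb in the mutant line alone. At 38 of the 441 a mutant H3K27ac peak overlapped the site directly and no WT H3K27ac peak lay within 1 kb. Both marks were thus called there in the mutant line alone, which for H3K4me1 is the rule itself. The like share of retained sites without H3K4me3 was not computed, so the 38 are a description. The following were chosen from these 38 after their values were seen. A site of 363 bp (chromosome 10, 99944952 to 99945314) had Kitl, the KIT ligand gene, as its nearest gene, 70.5 kb from the gene end, with 4.38-fold enrichment and a −log10 p of 7.10. A WT H3K4me1 peak lay 6.44 kb from this site, which is on the part of chromosome 10 where mutant-only sites were denser, as given below. A site of 845 bp (chromosome 4, 89350478 to 89351322) lay 39.9 kb from Cdkn2b, a CDK inhibitor gene, with 5.12-fold enrichment and a −log10 p of 7.31. Sites near Prkcz, an atypical protein kinase C gene (7.85), Psap, the prosaposin gene (7.74), and Bcr, a GTPase regulator gene (7.5), lay 7.33, 8.28 and 9.54 kb from the gene end.

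The 49 sites in H3K4me3 of the mutant line alone included promoters. Of the 48 not on chromosome 18, 37.5% lay 0.5 to 3 kb downstream, against 40.1% of all mutant-only sites. Mutant H3K27ac lay within 1 kb of 12.2% (4.63% to 24.8%) of the 49, against 27.3% of all mutant-only sites. At Mlph, the melanophilin gene of melanosome transport, 2 sites of 398 and 338 bp lay 1.95 and 2.83 kb downstream of the start with −log10 p values of 5.76 and 5.52, inside a mutant H3K4me3 peak of 3.15 kb with a score of 1456. Cdk2, a cell cycle kinase gene, had a site 1.84 kb downstream (6.73) in a mutant peak of 3.36 kb. Itga4, an integrin gene, had one 3.98 kb downstream (6.48) in a mutant peak of 4.73 kb, and Ghr, the growth hormone receptor gene, 3.68 kb downstream (6.16) in a mutant peak of 5.92 kb. Ercc1, a DNA repair gene (7.45), Kat5, an acetyltransferase gene (5.76), and Ppp2r1a, a phosphatase subunit gene (5.25), had sites 2.37, 1.07 and 2.57 kb downstream. A missing overlap with WT H3K4me3 at the site does not mean that the promoter lacked it. Of the 49, 1 overlapped H3K27ac in the mutant line and not in the WT line (chromosome 10, 26501127 to 26501632), and it had no protein-coding gene end within 100 kb. Those in this paragraph other than the last were chosen after their values were seen.

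A small group of mutant-only sites lay in Polycomb chromatin of the WT line. WT H3K27me3 overlapped 30 of 1928 (1.56%, 1.05% to 2.21%), against 3 of 1721 retained sites (0.174%, 0.036% to 0.509%) and 12 of 15360 WT-only sites (0.0781%, 0.0404% to 0.136%), and 0.904% of all mutant H3K4me1 peaks. Of the 30, 22 also had H3K4me3 in both lines, and 1 had H3K27ac within 1 kb in either line. Over all mutant-only sites, 65.7% had H3K4me3 in both lines, and 51.0% had H3K27ac within 1 kb in neither. The strongest lay at Shc3, a neuronal signalling adaptor gene (chromosome 13, 51568811 to 51569010), with 5.92-fold enrichment and a −log10 p of 8.73. The overlapping H3K4me3 peak there spanned 4.18 kb (score 2441) in the mutant line and 1.51 kb (score 404) in the WT line.

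The others of the 8 strongest of these sites were as follows. At Sim2, a bHLH-PAS factor gene (8.36), H3K4me3 spanned 1.08 kb in the mutant line and 1.51 kb in the WT line, at Ccnd2, the cyclin D2 gene (7.5), 4.57 and 7.85 kb, and at Foxl2 (7.38) 2.51 and 2.74 kb. Onecut3, a homeobox factor gene of neurons and endoderm, had 2 such sites (6.94 and 6.54) in a mutant H3K4me3 peak of 1.60 kb, with a WT peak of 1.16 kb at 1 of them. Ina, a neurofilament gene (6.80), had 1.69 kb in the mutant line and 0.929 kb in the WT line, and the site at Col2a1, the cartilage collagen gene (6.39), overlapped WT H3K4me3 of 0.576 kb alone. The deposited mutant H3K27me3 list, whose name gives the WT library as its control, overlapped 0 of 1928 mutant-only sites and 0 of all 3649 mutant H3K4me1 peaks. For mutant-only sites this allows a share of up to 0.156% by 3 counts, or 0.191% as the exact 95% limit. It lay within 1 kb of 1, against 0.0548% of all mutant H3K4me1 peaks within 1 kb.

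Across the genome, mutant-only sites were denser on part of chromosome 10 and on chromosome 19. They numbered 113 on chromosome 10 from 80 Mb on (2.23 per Mb) and 140 on chromosome 19 (2.28 per Mb), against 68 on chromosome 10 below 80 Mb (0.85 per Mb) and 0.705 per Mb on the other autosomes together. Retained sites had 1.72, 2.14, 0.463 and 0.646 per Mb in the same order. Other mutant lists were also denser there, with 15.9 and 16.2 H3K27ac peaks per Mb in the 2 dense regions against 7.09 on the other autosomes. WT H3K27ac had 13.5 and 13.9 against 10.4, and WT H3K4me1 7.41 and 9.90 against 7.02. Chromosomes 10 and 19 held 16.6% of mutant-only (15% to 18.4%), 14.8% of retained and 7.47% of WT-only sites. Without both chromosomes 67.1% of mutant-only sites overlapped mutant H3K4me3, against 26.9% of retained sites.

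**Figure D5:**
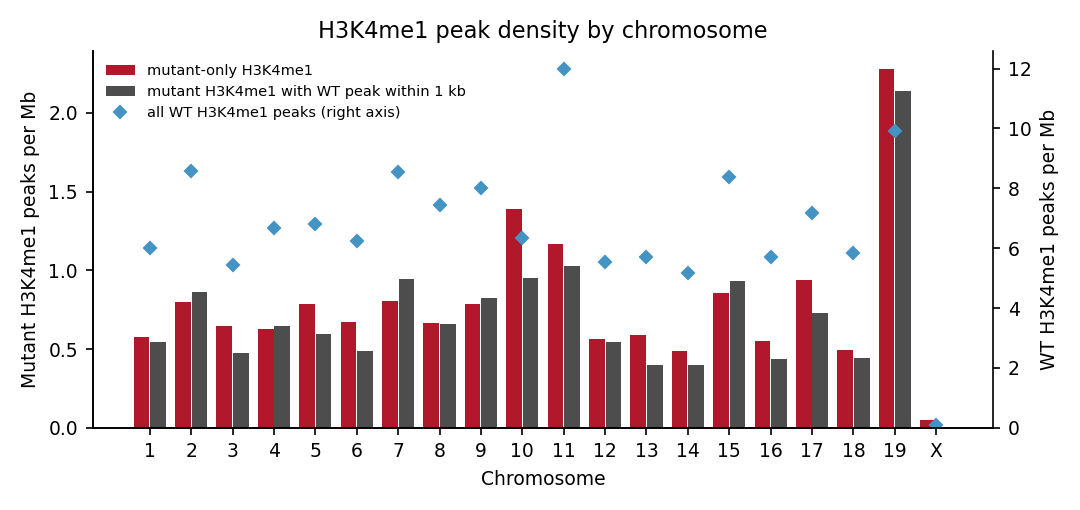
Mutant-only and retained H3K4me1 sites per Mb (bars, left axis) and all WT H3K4me1 peaks per Mb (diamonds, right axis, on another scale) by chromosome. Chromosome 19 has 2.28 mutant-only sites per Mb, and X has 8 sites in all.

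The X chromosome held 8 mutant H3K4me1 peaks, all of them mutant-only, and 19 WT peaks. Clusters were few. Of the 100 kb windows with any mutant-only site, 1261 held 1, 223 held 2, 49 held 3, 16 held 4 and 2 held 5. The 2 fullest were on chromosome 10, from 80100001 to 80200000 at Stk11 (the LKB1 kinase gene), Atp5d, Midn and Cirbp, with 8 WT H3K4me1 peaks in the same window, and from 93100001 to 93200000 near Cdk17, with 13. The 16 windows with 4 are tied, and the first 3 of them in chromosome order were on chromosome 2 near Spint4 and Dnttip1 (2 WT peaks), on chromosome 7 near Gys1, Ftl1 and Bax (no WT peak) and on chromosome 10 near Samd5 (no WT peak). A further mutant-only site lay within 1 kb of 75 sites, so neighbours are not separate observations.

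By gene, mutant-only sites lay within 1 kb of an end of 393 of 21631 protein-coding genes (1.82%) and within 5 kb of a start of 1172 of 17274 (6.78%). Of these 1172 genes, 64 also had a retained site within 5 kb of a start (5.46%, 4.23% to 6.92%) and 151 a WT-only site (12.9%, 11% to 14.9%), and 975 had neither. Over all 17274 genes these shares were lower, at 2.17% and 9.26%. The following lists are by function. Among genes of the TCA cycle and respiratory chain, Sdhc, a succinate dehydrogenase subunit gene (−log10 p 6.40), and Mdh2, a malate dehydrogenase gene (5.61), had a site within 1 kb of a gene end. This Mdh2 site is nearest to the start of its neighbour Styxl1, 0.68 kb downstream of it, and cannot be assigned to either gene alone. Spry1, a feedback inhibitor of MAPK signalling (6.38), was 1 of 22 MAPK genes. The 22 melanocyte, 28 Hox and 28 H3K4 and H3K27 enzyme genes had none.

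Within 5 kb of a start, 5 of 17 housekeeping genes had a mutant-only site, where 5 had a WT-only site and none a retained site. At Tbp, the TATA-binding protein gene, it lay 1.23 kb downstream (−log10 p 6.83), at Tfrc, the transferrin receptor gene, 1.02 kb (6.55), at Polr2a, the largest RNA polymerase II subunit gene, 2.41 kb (6.22), and at Vcp, an ATPase gene of protein quality control, 2.25 and 2.90 kb (7.34 and 6.47). The site at Rps18, a ribosomal protein gene (6.93), is nearest to the start of its neighbour B3galt4, 2.13 kb downstream of it, and cannot be assigned to 1 of them. The sites of all 5 genes lay in H3K4me3 of both lines and had no H3K27ac within 1 kb in either.

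The other lists follow. Glycolysis had 4 of 23, namely Gpi1, Pfkl, Pgam1 and Pkm, with Pfkl 1.57 kb and Pgam1 2.80 kb downstream. The cell cycle had 3 of 17 (Cdk2, Cdkn1a and E2f3), and at E2f3 the H3K4me3 peak that overlapped the site spanned 4.98 kb in the mutant line and 1.03 kb in the WT line. Invasive and neural crest genes had 2 of 14, Twist1 (4 kb downstream, 7.58) and Vim, the vimentin gene (upstream, at −1.74 kb, 5.47). IGF and insulin genes had 2 of 21, Igf1 and Mtor, and at Igf1 a site of 200 bp lay 0.041 kb after the start (6.37), where H3K4me3 spanned 2.72 kb in the mutant line and 1.79 kb in the WT line. H3K4 and H3K27 enzyme genes had 1 of 21, Wdr5, a shared COMPASS subunit gene (1.98 kb downstream, 7.64). The TCA cycle and respiratory chain had 2 of 17, MAPK targets 2 of 14, melanocyte genes 1 of 15, which was Mlph, and fibroblast markers 2 of 5, Col3a1 and Col6a1. Hox genes (16), endothelial (7), immune (5) and keratinocyte (7) markers had none. With lists this small and neighbouring genes sharing sites, none is called particular.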

How the data were processed

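ChIP-seq peak lists of 4 histone marks in mutant line 493 and WT line 971 were used, 1 library each; depth is unknown and input reads were not used. Peaks were called on mm10 with MACS2, per the submitters' processing notes, where FastQC and MultiQC are also named, without versions. Aligner and read filters: not given in the sources used here. The deposited MACS2 lists give the authors' fold enrichment over control (a ratio) and −log10 p and q per peak. The control was the line's own input, except for mutant H3K27me3, where it was the WT H3K27me3 library, per the file names. The deposited H3K4me3 lists have the older MACS layout, whose score is a multiple of −log10 p, and many strong peaks share 3100. The deposited score of the MACS2 lists and the summit offset were not used.

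Peaks on chromosomes 1 to 19 and X were kept. Distances were computed in Python 3.11.15 (pandas 2.3.3, SciPy 1.17.1, NumPy 2.4.6) and tested on simulated data. Other marks counted by 1 bp overlap or within 1 kb. Gene ends were those of 34328 protein-coding and lncRNA models (GRCm38); strand and starts came from a RefSeq promoter table of the same assembly, which was added where the plan used gene ends. Shares have exact (Clopper-Pearson) 95% intervals, which cover counting error only and treat peaks as independent. With 1 library per group no test between lines was made. GC content of the sites themselves was not computed, because no genome sequence was used, and RefSeq promoters are printed in place of the planned site sequences.

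Genes were named by rule: nearest coding gene within 100 kb for the strongest sites by p until 25, list genes with a site within 1 kb of an end, the 5 fullest 100 kb windows (ties in chromosome order), and up to 8 sites each in WT H3K27me3 and with mutant H3K27ac and H3K4me3 alone; a few genes the rule took are not reported here. The sites and gene lists were chosen with earlier results of these data known. Alternatives were another distance (1 bp, 5 kb), WT lists of equal length, the more significant 50% of a list, another mark within 1 kb, a gene end distance of 2.5 kb and leaving out chromosomes 10 and 19.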

Additional observations from a re-analysis of the deposited data

How the results depend on the processing

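No paired analysis was possible because each line had 1 library per mark. The order of mutant-only against retained sites held in all 5 alternatives of the rule, list and chromosomes for both lines' H3K4me3 and H3K27ac, WT H3K27me3, gene ends and downstream position. Sizes moved. The mutant-only share of the mutant list (52.8%) was 68.3% with 1 bp overlap, 41.8% with 5 kb, 83.4% with the WT list shortened to equal length, and 49.5% when just the more significant 50% was kept.

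In the same 4 settings (1 bp overlap, 5 kb, equal length, more significant 50%) mutant H3K4me3 overlapped 60.7%, 70.7%, 55.8% and 71.7% of sites, and WT H3K4me3 70.3% with 1 bp overlap, 68% with equal length and 78.4% in the more significant 50%. With 1 bp, 5 kb and equal length, WT H3K27ac overlapped 9.47%, 6.55% and 10.9%, and 34.9%, 43.4% and 31.4% lay downstream. With equal length mutant H3K27ac was 10.1%, the median width 347 bp and gene ends 16.9% (18.4% with 1 bp). Gene ends within 2.5 kb gave 57%. Within 1 kb instead of overlap, shares were 27.3% and 33.8% for mutant and WT H3K27ac and 74.5% and 80.9% for mutant and WT H3K4me3. In the more significant 50% of these lists they were 5.19%, 4.67%, 58.3% and 62.6%. Chromosomes 10 and 19 held 18.8% in the more significant 50%. Downstream position was added after seeing the data, and GC content of sites was not run. The causes were not tested.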
